A study of Mus musculus with 16 samples.

Results

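The promoters of 38 mouse genes of meiotic prophase were examined for H3K4me3, the trimethyl mark on histone H3 that is found at the start sites of active genes. The genes are listed by name for their known part in meiosis, and membership rests on no measured value. A promoter peak was a peak within 1 kb of a transcription start site of the gene on mm9, the mouse genome build of the peak lists. Of the 38 genes, 33 were in the RefSeq table of start sites and 32 could be placed on mm9, among 23927 placed genes of 26794 in that table. Spo11, Meiob, Tex15, Ythdc2 and Majin were not in the table. Sycp2 was left out because its position was clear from the B6 list but not from the B6-TgYF list. Placed by the B6 list alone, it had a promoter peak in all 3 lists, at percentiles of 80.6, 67.4 and 78.2 of fold enrichment.

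Chromatin was taken from whole testis of mice aged 13 days post-partum and precipitated with a rabbit polyclonal antibody to H3K4me3. B6 mice (C57BL/6JOlaHsd) carried no transgene, B6-TgWT mice were C57BL/6J-Tg(RP23-159N6*)43Bdm, and B6-TgYF mice were C57BL/6JRj-Tg(RP23-159N6*)23Bdm. As is known of the study, both transgenes are modified copies of a genomic clone with the Prdm9 gene: TgWT makes a catalytically active PRDM9 with the zinc fingers of another allele, and TgYF the same protein with a mutated methyltransferase domain. The labels of the 3 lines name no deletion of the mouse's own Prdm9, each transgene is represented by 1 line, and each line has its own C57BL/6 substrain. A difference between lists is therefore a difference between lines. A 12 stands in the name of the B6 list, although its libraries are labelled as 13 days.

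Each line had 2 ChIP libraries and 1 input but 1 peak list, so the lists hold no spread between replicates and no p-value could be computed. The lists held 51170 peaks in B6 and 47648 and 42496 in B6-TgWT and B6-TgYF on the autosomes and X, and their read depth is unknown. Each peak's fold enrichment is the value given by the authors' peak caller. Strength is given here as the percentile of that fold within its own list, where 100 is the strongest peak, because folds of separate lists are not on 1 scale. Where 3 values follow each other without a line, they are in the order B6, B6-TgWT, B6-TgYF. A 95% interval of a median over genes comes from order statistics and covers the spread between genes only.

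Meiotic prophase is the stage at which homologous chromosomes are cut, paired and recombined. Chromosomes first build a protein axis of cohesins and HORMA-domain proteins, on which SPO11 and its partners make double-strand breaks. PRDM9 binds DNA through zinc fingers, trimethylates nearby histone H3 and so marks the sites where these breaks fall. The strand exchange proteins load on the broken ends, the synaptonemal complex zips the homologs together, and crossover factors mature a part of the breaks. In the juvenile testis the first wave of germ cells passes through these steps while spermatogonia, Sertoli cells and interstitial cells are also present. Since the tissue was whole testis, fewer cells with the mark and less of the mark per cell cannot be told apart.

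The DNA just upstream of the start site is shown for 6 of the genes, as 250 bases of RefSeq sequence on GRCm38.p6, read 5′ to 3′ on the strand of the gene and ending at the base before the most upstream start site. Capitals mark matches on either strand to motifs searched in every promoter: the E-box CACGTG bound by MAX and its partners, an E2F motif GGCGGGAA, a STRA8 motif CNCCTCAG, a MYB core CAGTTG, a cyclic AMP element TGACGTCA and the palindromic NRF1 motif. Prdm9 (chr17:15564355-15564604, minus strand) is shown because its locus is on both transgenes, and in it the E2F and the STRA8 match overlap. Stra8 (chr6:34920698-34920947, plus strand) encodes the factor that carries germ cells into meiosis. Terb1 (chr8:104509888-104510137, minus strand) and Syce3 (chr15:89410504-89410753, minus strand) had the highest and the lowest mean percentile of the set. Hormad1 (chr3:95559427-95559676, plus strand) and Sycp3 (chr10:88459337-88459586, plus strand) are the genes of the set with more than 1 E-box.
Prdm9: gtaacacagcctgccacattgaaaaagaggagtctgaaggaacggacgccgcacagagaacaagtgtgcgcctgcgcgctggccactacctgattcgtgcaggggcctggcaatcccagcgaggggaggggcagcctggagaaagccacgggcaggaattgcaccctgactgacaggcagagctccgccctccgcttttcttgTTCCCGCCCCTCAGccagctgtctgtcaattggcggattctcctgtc
Stra8: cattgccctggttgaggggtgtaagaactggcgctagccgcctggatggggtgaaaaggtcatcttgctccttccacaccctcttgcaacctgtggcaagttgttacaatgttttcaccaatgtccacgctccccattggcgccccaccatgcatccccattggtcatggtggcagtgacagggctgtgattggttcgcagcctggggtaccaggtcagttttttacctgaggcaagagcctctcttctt
Terb1: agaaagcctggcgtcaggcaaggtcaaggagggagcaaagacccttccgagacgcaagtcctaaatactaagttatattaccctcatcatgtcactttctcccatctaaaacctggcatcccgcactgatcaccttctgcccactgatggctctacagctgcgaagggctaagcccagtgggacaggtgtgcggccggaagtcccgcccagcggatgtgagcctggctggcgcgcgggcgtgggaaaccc
Syce3: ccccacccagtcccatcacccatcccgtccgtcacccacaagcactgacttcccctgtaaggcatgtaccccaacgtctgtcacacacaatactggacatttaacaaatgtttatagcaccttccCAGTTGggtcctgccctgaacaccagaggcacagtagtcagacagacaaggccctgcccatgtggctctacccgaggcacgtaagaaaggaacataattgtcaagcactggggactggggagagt
Hormad1: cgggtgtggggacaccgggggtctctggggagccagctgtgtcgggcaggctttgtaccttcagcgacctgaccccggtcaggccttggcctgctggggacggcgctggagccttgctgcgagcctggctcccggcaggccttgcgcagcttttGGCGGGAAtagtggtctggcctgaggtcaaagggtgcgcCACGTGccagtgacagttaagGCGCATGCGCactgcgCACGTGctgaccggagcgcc
Sycp3: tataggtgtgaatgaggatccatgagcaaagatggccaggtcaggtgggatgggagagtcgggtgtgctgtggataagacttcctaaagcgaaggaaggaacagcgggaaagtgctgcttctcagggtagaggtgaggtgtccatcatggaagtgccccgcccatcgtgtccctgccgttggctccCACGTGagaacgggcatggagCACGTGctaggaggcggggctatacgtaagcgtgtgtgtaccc

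The promoters of the meiotic genes were marked in all 3 lines. Of the 32 placed genes, 31 had a promoter peak in each of the 3 lists, and these were the same 31 genes. Over all placed genes, 59% had a promoter peak in B6, 57.3% did in B6-TgWT and 57.4% did in B6-TgYF, and 56.1% had one in all 3 lists. Among protein-coding genes that last share was 71%. The offsets between the builds were those that put many start sites of other genes near B6 peaks, which favours a high share for every placed gene, and the 38 genes cast no vote. The start site lay under its strongest B6 peak in 28 of the 31 genes. It lay 79 bp outside the B6 peak at Msh4, 706 bp at Stra8 and 836 bp at Rad21l, the farthest in B6.

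Mei1, which is needed for break formation, was the gene without a promoter peak in any list. Its nearest peaks lay 10030 bp away in B6 and 11691 bp and 10205 bp in B6-TgWT and B6-TgYF. The table holds a single start site for Mei1, and the RefSeq gene model reaches 12.4 kb farther upstream. A peak lay over that upstream end in every list, at chr15:81900215-81901243 in B6, with percentiles of 76.8 in B6 and 78.3 and 72.9 in B6-TgWT and B6-TgYF. So the absence of a peak holds for the start site in the table and not for the upstream end of the gene.

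Strength was close to that of promoters at large. The median percentile of the 31 genes was 84.6 in B6 (interval 78.7 to 87.5), 82.1 in B6-TgWT (76.2 to 86.2) and 80.7 in B6-TgYF (75.1 to 83.8). Over all placed genes with a peak it was 84.3, 83.8 and 81.9 in the same order, inside each interval. Over protein-coding genes with a peak it was 86.2, 85.6 and 83.9. Those medians lay inside the interval in B6 and B6-TgWT and just above it in B6-TgYF. What differed in number was the top of the range. At or above the 90th percentile stood 6 of the 31 genes in B6 (19.4%), where 33.4% of all promoter peaks stood there. The count was 4 of 31 in B6-TgWT (12.9%) against 32.6%, and 5 of 31 in B6-TgYF (16.1%) against 28.8%. At or above the 75th percentile stood 24 of 31 in B6 (77.4%) against 72%, 23 of 31 in B6-TgWT (74.2%) against 70.2%, and 22 of 31 in B6-TgYF (71.0%) against 65.4%. At the 50th percentile the meiotic genes were 31 of 31 in B6 against 90%, 31 of 31 in B6-TgWT against 89.2%, and 30 of 31 in B6-TgYF against 89.1%. Their peaks thus lay mostly in the upper middle of each list, with few at the weak end and few at the very top. The counts at both ends are small and come from the same 31 genes in each list. Whether they set the genes apart was not tested.

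**Figure D1:**
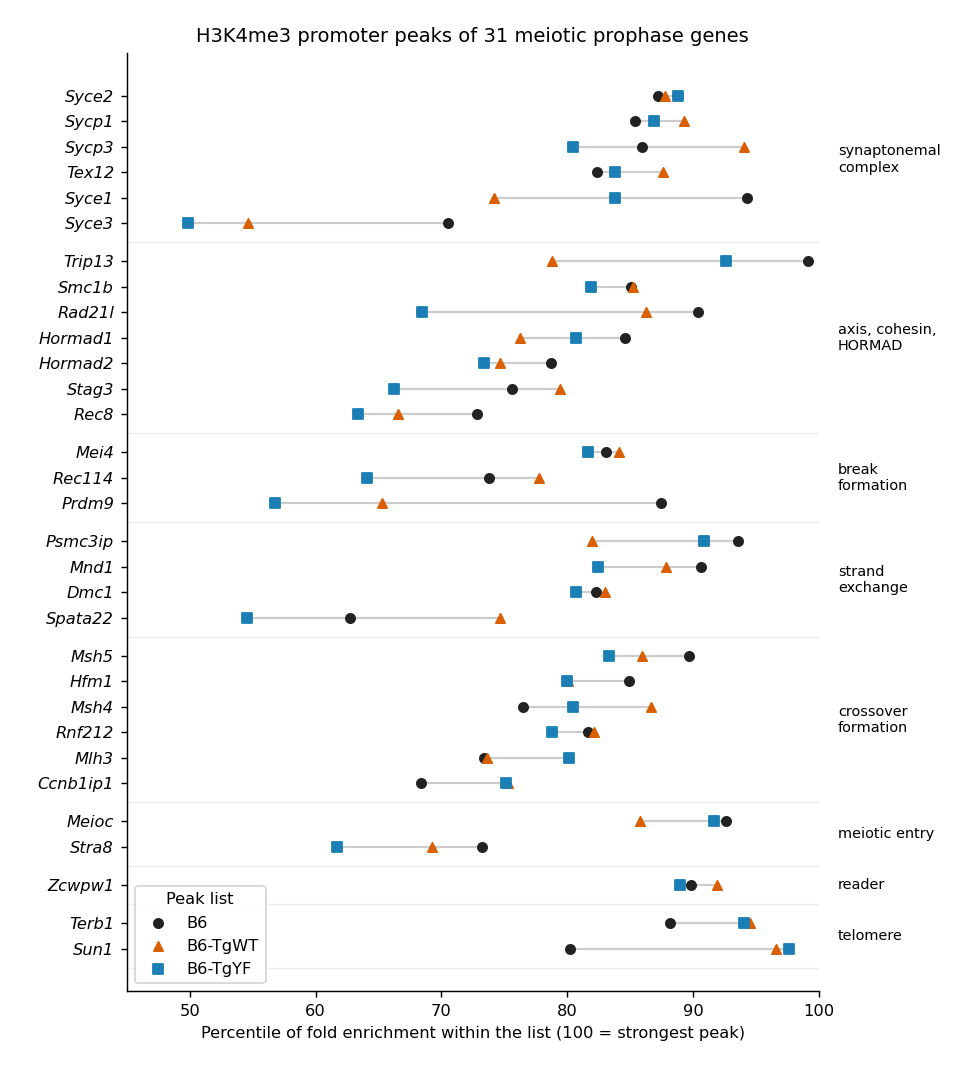
Percentile of fold enrichment within each list (horizontal axis, percent) for the 31 genes with a promoter peak, grouped by role; circles are B6, triangles B6-TgWT and squares B6-TgYF, 1 value per list. Most genes lie between 70 and 95 in all 3 lists, Prdm9 and Syce3 lie farther right in B6 than in either transgenic line, and Sun1 farther left.

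The synaptonemal complex genes had median percentiles of 85.7 in B6 and 87.7 and 83.8 in B6-TgWT and B6-TgYF over 6 genes. Sycp1, the transverse filament that bridges the homologs, stood at 85.4 in B6 and 89.3 and 86.9 in B6-TgWT and B6-TgYF. Sycp3, the lateral element protein used to stain meiotic chromosomes, stood at 85.9, 94.0 and 80.4 in that order, and its B6 peak at chr10:87921647-87924444 was 2798 bp wide. The central element genes were less alike. Syce2 was at 87.2, 87.8 and 88.8 and its partner Tex12 at 82.4, 87.6 and 83.8, so both moved little between lines. Syce1 was at 94.3 in B6 and 74.1 and 83.8 in B6-TgWT and B6-TgYF. Syce3 was the weakest gene of the whole set by mean percentile, at 70.5 in B6 (chr15:89240059-89241461, fold 14.58), 54.6 in B6-TgWT (fold 7.49) and 49.9 in B6-TgYF (fold 7.55). Its peak kept nearly the same width, with 1403, 1344 and 1385 bp.

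The axis group, with cohesins and HORMA-domain proteins, had medians of 84.6 in B6 and 78.8 and 73.4 in B6-TgWT and B6-TgYF over 7 genes. Trip13, the ATPase that takes HORMA-domain proteins off the axis, had the strongest B6 peak of the set at chr13:74074323-74076293, with percentiles of 99.1, 78.8 and 92.6 and folds of 37.06, 16.1 and 28.87. Its start site faces that of Brd9 within 1 kb, so the peak cannot be given to Trip13 alone. Hormad1 was at 84.6 in B6 and 76.2 and 80.7 in B6-TgWT and B6-TgYF, and Hormad2 at 78.7, 74.7 and 73.4. Both encode axis proteins that watch over synapsis.

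The meiotic cohesins covered a wide range. Smc1b stood at 85.0 in B6 and 85.2 and 81.9 in B6-TgWT and B6-TgYF, from a promoter shared with Ribc2. The kleisin Rad21l stood at 90.4, 86.2 and 68.5, and its peak lay 836, 857 and 797 bp from the start site in the table. Rec8, the kleisin that holds sister chromatids together until the second division, was among the weakest genes at 72.8 (chr14:56236236-56238097), 66.6 and 63.4, with widths of 1862, 1664 and 1826 bp. Stag3, which shares its promoter with Gpc2, stood at 75.6, 79.4 and 66.2.

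Break formation was represented by 3 genes with a peak. Mei4 and Rec114 belong to the complex that activates SPO11. Mei4 stood at 83.0 in B6 and 84.1 and 81.6 in B6-TgWT and B6-TgYF, a narrow spread. Rec114 stood at 73.7, 77.7 and 64.1. Prdm9 was at 87.5 in B6 and 65.3 and 56.8 in B6-TgWT and B6-TgYF and is described with its neighbours after the other genes.

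The strand exchange genes had medians of 86.5 in B6 and 82.5 and 81.6 in B6-TgWT and B6-TgYF over 4 genes. Dmc1, the meiotic recombinase, stood at 82.3, 83.0 and 80.7. Its accessory pair ranked higher in B6, with Psmc3ip at 93.6, 82.0 and 90.8 and Mnd1 at 90.6, 87.8 and 82.4. Mnd1 was also the narrowest promoter by mean width, with a peak of 1197 bp at chr3:83959142-83960338 in B6 and 1183 bp and 1164 bp in B6-TgWT and B6-TgYF. Spata22, which binds single-stranded DNA together with MEIOB, had the lowest B6 percentile of the set at 62.8 (chr11:73142421-73144102, fold 10.94), with 74.7 in B6-TgWT (fold 13.75) and 54.6 in B6-TgYF (fold 8.53).

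The 6 crossover genes ran from 68.4 to 89.7 in B6, from 73.6 to 86.6 in B6-TgWT and from 75.1 to 83.3 in B6-TgYF. The partners Msh4 and Msh5 form a clamp on recombination intermediates. Msh4 was at 76.5, 86.6 and 80.5 and Msh5 at 89.7, 85.9 and 83.3. Mlh3, a nuclease subunit that resolves crossovers, was at 73.4, 73.6 and 80.2. The helicase Hfm1 was at 84.9, 80.1 and 80.0. Rnf212 and Ccnb1ip1 encode ligases that select crossover sites. Rnf212 was at 81.7, 82.1 and 78.8. Ccnb1ip1, with a narrow peak of 1206 bp at chr14:51414703-51415908 in B6, was at 68.4, 75.3 and 75.1, and its widths in the transgenic lines were 1255 and 1265 bp. Under stricter settings of the placing Ccnb1ip1 could not be placed on mm9.

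Genes of meiotic entry stood far apart. Meioc, which keeps germ cells in the meiotic programme, was among the strongest, at 92.6 in B6 (chr11:102525513-102527836) and 85.8 and 91.7 in B6-TgWT and B6-TgYF, with widths of 2324, 2018 and 2149 bp. Stra8 was among the weakest. It was the member with 2 peaks within 1 kb of its start site in every list, the first over the start site and the next 706 bp away from it in B6. The start site peak had percentiles of 67.2 in B6 and 69.3 and 60.8 in B6-TgWT and B6-TgYF. The other peak, at chr6:34871650-34872686 in B6, had 73.2, 66.2 and 61.7. The stronger of the pair was therefore the distant peak in B6 and B6-TgYF and the start site peak in B6-TgWT.

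Telomere attachment genes and the reader of the mark held the highest mean percentiles. Terb1, a part of the complex that ties telomeres to the nuclear envelope, stood at 88.2 in B6 (chr8:107032545-107034411) and 94.5 and 94.0 in B6-TgWT and B6-TgYF, with widths of 1867, 1596 and 1745 bp. Sun1, the envelope protein those telomeres attach to, stood at 80.2 (chr5:139675740-139677980, fold 21.62), 96.6 (fold 28.27) and 97.6 (fold 32.73). Sun1 is also expressed in somatic cells. Zcwpw1, whose protein binds histone H3 with the marks left by PRDM9, stood at 89.8, 91.9 and 88.9.

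Width set the meiotic promoters somewhat below promoters at large. The median width was 1791 bp in B6 (interval 1624 to 1971), 1596 bp in B6-TgWT (1416 to 1890) and 1735 bp in B6-TgYF (1447 to 1854). All placed genes with a peak had medians of 2018, 1868 and 1928 bp, and protein-coding genes 2090, 1918 and 1982 bp. The median of all genes lay above the interval in B6 and B6-TgYF and inside it in B6-TgWT. Narrower than the median of all genes were 24 of 31 meiotic promoters in B6 and 21 and 23 in B6-TgWT and B6-TgYF. The broadest exception was Zcwpw1, whose peak at chr5:138225873-138230823 was 4951 bp wide in B6 and 4429 bp and 4832 bp in B6-TgWT and B6-TgYF. By mean width over the lists, Sycp3 came next with 2798, 2034 and 2598 bp, and then Prdm9 with 2390, 2088 and 2334 bp. In B6-TgWT alone Sun1, at 2187 bp, was wider than both. The lowest mean widths were those of Mnd1, Stra8 and Ccnb1ip1, while in single lists Msh5 was narrowest in B6-TgWT (1104 bp) and Mlh3 in B6-TgYF (1047 bp). The place of Stra8 rests on the choice of its stronger peak, 1037 bp wide in B6. Its peak over the start site was 2093 bp wide in B6, above the median of all genes, and 1332 and 954 bp wide in B6-TgWT and B6-TgYF.

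**Figure D2:**
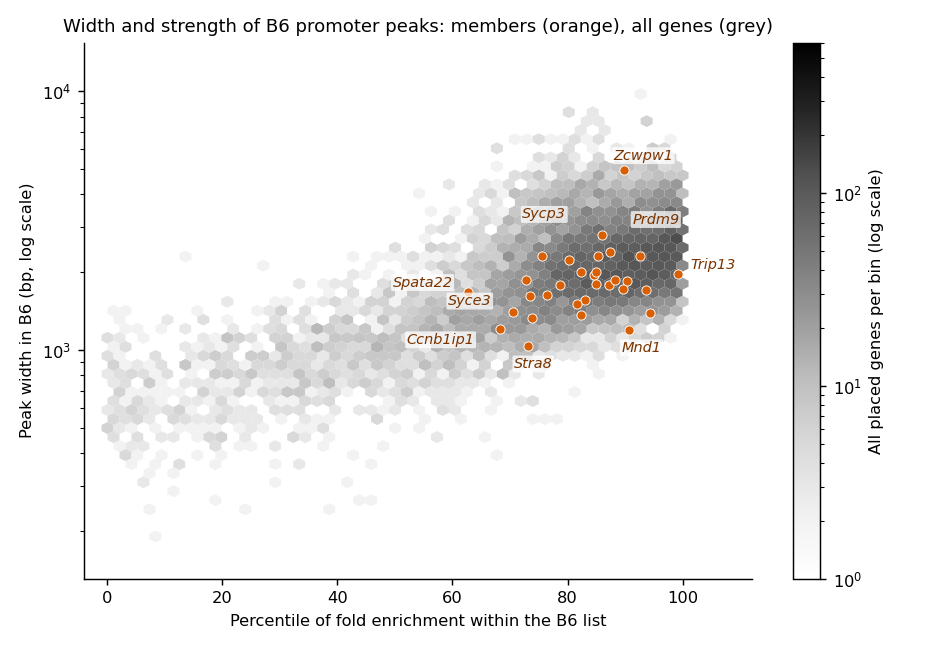
Peak width in bp (vertical log axis) against percentile of fold enrichment (horizontal axis) in the B6 list; grey hexagons count all placed genes with a promoter peak and orange points are the 31 meiotic genes. The meiotic promoters all lie above the 62nd percentile, the narrowest point (1037 bp) is the stronger of the pair of Stra8 peaks and not the one over its start site, and Zcwpw1 stands above them at 4951 bp.

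Promoters of other genes were read in the same lists as a check on the tissue. Only a part of each gene list could be placed: 18 of 28 further meiotic, 9 of 14 spermatogonial and 10 of 14 spermatid genes. Placed too were 4 of 10 Sertoli cell genes, 5 of 10 of Leydig and peritubular cells and 8 of 14 of other tissues. Among all placed genes, 59% had a promoter peak in B6 and 56.1% in all 3 lists. All 18 placed genes of a further meiotic list had a peak in all 3 lists, with a median B6 percentile of 88.0. Among them Hells was highest by mean percentile (98.0 in B6) and Tex19.1 lowest (55.0 in B6). The spermatogonial list had peaks at 7 of 9 placed genes, without Nanos2 and Nanos3, and its median was 78.6. Of 10 placed spermatid genes, whose cells are absent at this age in the first wave, 5 had a peak in all 3 lists. That is near the share of all placed genes. Prm1, Tnp2, Akap4 and Catsper3 had none. The list's lowest, Izumo1, stood at 32.5 in B6, and its highest, Tssk6, at 89.5. Placed Sertoli cell genes had peaks at 4 of 4 and placed genes of Leydig and peritubular cells at 4 of 5, with medians of 74.1 and 55.7 in B6. In the list of other tissues 2 of 8 placed genes had a peak, Apoa2 and Cd3e, and 6 did not, among them Alb and Myh6. The part of each cell type in the marks was not tested.

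**Figure D3:**
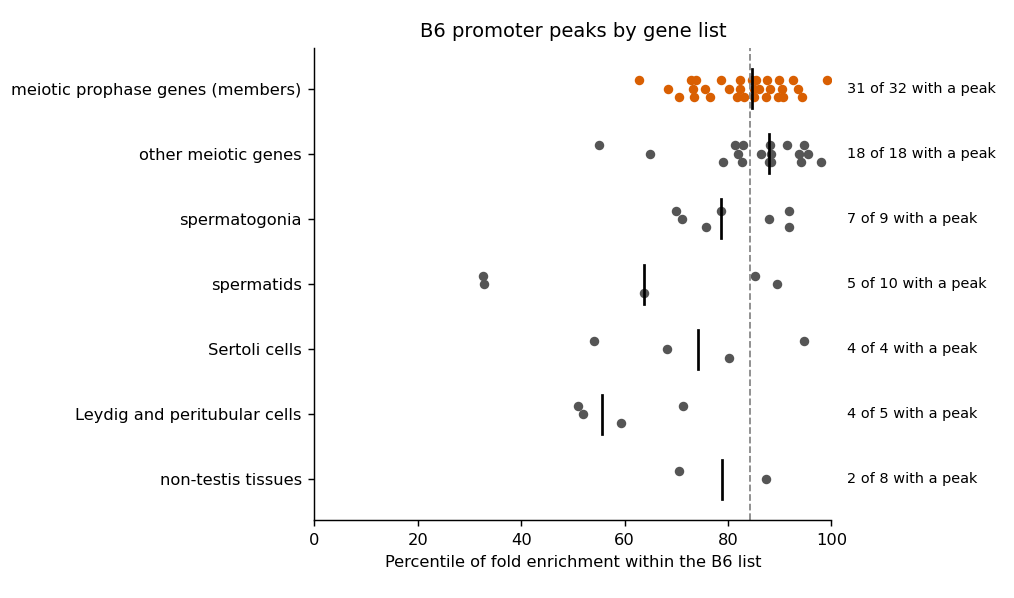
Percentile of fold enrichment in the B6 list (horizontal axis) of each gene with a promoter peak, by gene list; points are genes, black bars list medians, the dashed line the median of all placed genes, and the text gives genes with a B6 peak among those placed. Meiotic lists had a peak at 31 of 32 and 18 of 18 genes, the list of other tissues at 2 of 8.

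The lists were then compared gene by gene. B6 served in both comparisons with a transgenic line, so these are not independent. In B6-TgWT, 14 of the 31 genes had a lower percentile than in B6 and 17 a higher one, with a median difference of 0.222 points (interval -4.15 to 3.80). Over all genes with a peak in both lists, 63% were lower in B6-TgWT and the median difference was -2.12. In B6-TgYF, 23 of 31 were lower than in B6 and 8 higher, with a median of -3.86 points (interval -8.17 to -0.970). All genes gave 69% lower and a median of -3.55 in that comparison. Between the transgenic lines, 8 of 31 were lower in B6-TgWT than in B6-TgYF and 23 higher, with a median of 2.63 points (interval 0.120 to 4.72), against 41.1% lower and a median of 1.13 over all genes. The median over all genes lay inside the interval of the meiotic genes each time. The length of the lists moves these differences. With all lists cut to the length of the shortest, 18 of 31 genes were lower in B6-TgYF than in B6. The median was -0.712 points and its interval held 0, against 54.2% lower and a median of -0.608 over all genes. The comparison of the transgenic lines then gave 14 lower and 17 higher, with a median of 0.594. Over all genes 53.2% were lower there, with a median of -0.409. B6-TgWT minus B6 gave 14 lower and 17 higher, with a median of 1.68. All genes gave 57.7% lower and a median of -1.25 in that comparison.

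Single genes set apart were those outside the central 95% of all genes. For B6-TgYF minus B6 this range ran from -24.2 to 15.4 points, with 2.49% of all genes below it and 2.5% above. Prdm9 lay below it at -30.7 and Sun1 above it at 17.4. Rad21l at -21.9 and Syce3 at -20.6 were the next lowest and inside the range. For B6-TgWT minus B6 the range ran from -28.1 to 16.6, with 2.5% of all genes on either side, and no meiotic gene lay outside it. Prdm9 at -22.2, Trip13 at -20.3 and Syce1 at -20.1 came nearest below and Sun1 at 16.3 nearest above. For B6-TgWT minus B6-TgYF, Spata22 at 20.1 lay just above the range of -20.4 to 19.4. Counts of 0 to 2 among 31 genes are near these background shares and say nothing about the set.

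**Figure D4:**
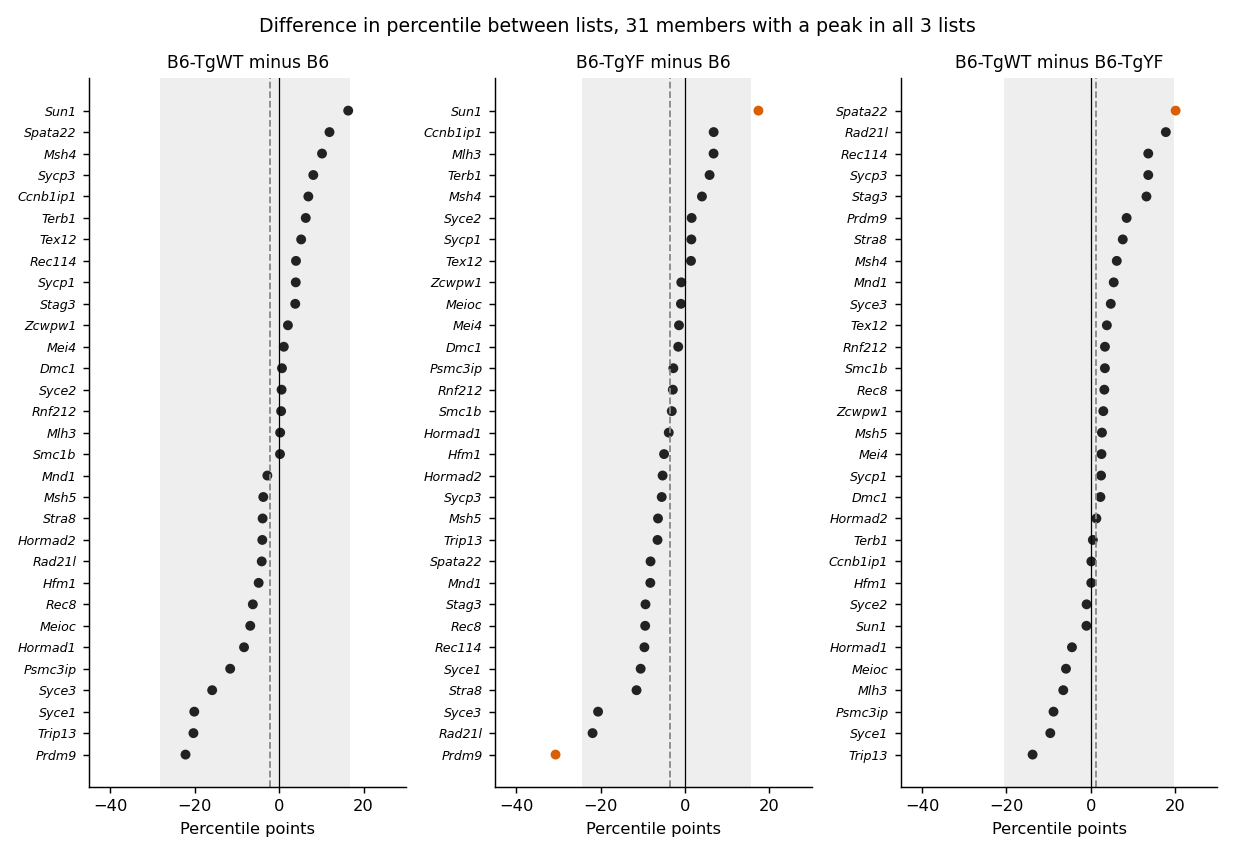
Difference in percentile of fold enrichment (points, horizontal axes) for each of the 31 genes in 3 comparisons of lists, sorted within each panel; the grey band is the central 95% of all placed genes, the dashed line their median, and orange points lie outside the band. Prdm9 (-30.7) and Sun1 (17.4) fall outside it for B6-TgYF minus B6 and Spata22 (20.1) for B6-TgWT minus B6-TgYF.

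The measure of strength mattered for these genes. With the authors' −log10 q in place of fold enrichment, the difference of Prdm9 between B6-TgYF and B6 was -4.89 points, inside the central range of -17.8 to 6.92. Sun1 stayed outside with 9.36. With lists of equal length Prdm9 at -28.1 and Sun1 at 21.4 lay outside the range of -19.3 to 20.7, and Spata22 at 17.0 lay inside its range, which ended at 17.4. Spata22 between the transgenic lines came to 9.33, inside the range of -13.0 to 10.1, and ranked among promoter peaks only it also fell inside its range. The low rank of Prdm9 in B6-TgYF is thus a statement about fold enrichment and not about the caller's q.

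Widths changed with the lists. Peaks were narrower in B6-TgWT than in B6 at 22 of 31 meiotic genes, where 82.6% of all genes were, with a median log2 ratio of -0.06 against -0.11 over all genes. They were narrower in B6-TgYF than in B6 at 24 of 31, where 74.3% were, with medians of -0.07 and -0.06. Between B6-TgWT and B6-TgYF, 17 of 31 were narrower in the first, where 64.9% were. The central 95% was passed by Mlh3, whose peak was 1624 bp wide in B6 (chr12:86610798-86612421) and 1622 bp and 1047 bp in B6-TgWT and B6-TgYF, a log2 ratio of 0.63 for B6-TgWT over B6-TgYF. In that comparison 5% of all genes lay outside. Stra8 passed it for B6-TgWT over B6 at 0.36, where 5.01% of all genes did. That ratio set different peaks of its pair against each other, and at the peak over the start site the ratio was -0.65 and inside the range.

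Prdm9 showed the largest fall in percentile of the set in both comparisons with B6. Its peak in B6 lay at chr17:15699962-15702351, 2390 bp wide, with a fold of 26.91. In B6-TgWT the fold was 9.85 over 2088 bp, and in B6-TgYF 9.1 over 2334 bp. The authors' deposited table of each line gave this peak a −log10 q of 444.09 in B6 and 266.71 and 293.22 in B6-TgWT and B6-TgYF. Both transgenic lines carry further copies of this locus in ChIP and in input alike, so a change of the mark and a change in copy number cannot be told apart. The gene body of Prdm9, beyond 1 kb of its start sites, held 1 peak in B6 and 0 in either transgenic list.

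Promoters near Prdm9 did not all share its fall. Tbp, a general transcription factor gene 64.5 kb downstream, stood at 97.1 in B6 and 97.8 and 93.5 in B6-TgWT and B6-TgYF. On the other side, 67.4 kb upstream, the non-coding gene 4933401D09Rik had a weak peak at 46.0, 35.2 and 2.91, a difference of -43.1 points between B6-TgYF and B6. Farther upstream, 5830433I10Rik at 141.0 kb stood at 86.9, 74.6 and 77.5 and Rgmb at 262.2 kb at 99.6, 93.8 and 99.3. Downstream, Fam120b was at 89.9, 81.9 and 97.7 and the Notch ligand gene Dll1 at 80.4, 82.0 and 80.2. Which of these genes lie on the transgene was not examined.

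**Figure D5:**
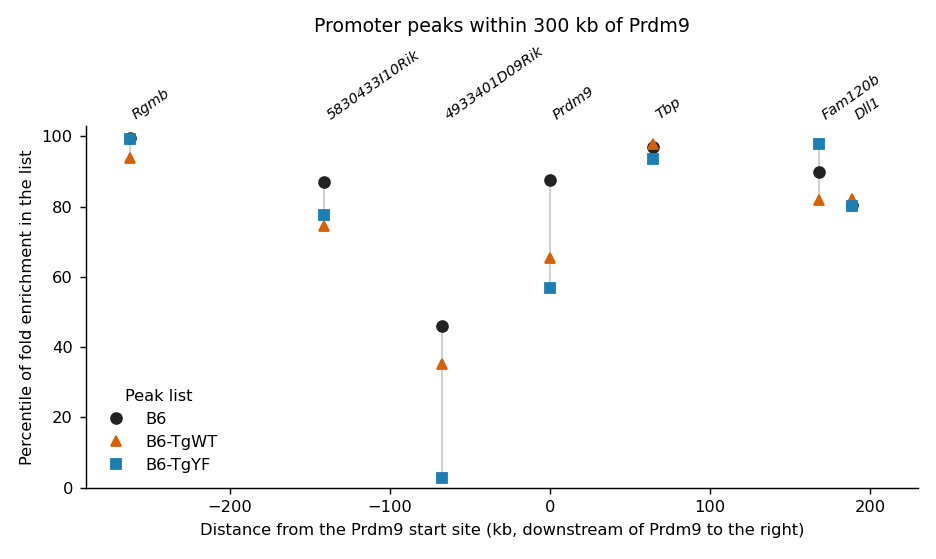
Percentile of fold enrichment in each list (vertical axis) of the promoter peaks within 300 kb of Prdm9, by distance from its start site in kb with downstream to the right; circles are B6, triangles B6-TgWT and squares B6-TgYF. Prdm9 falls from 87.5 in B6 to 65.3 and 56.8, Tbp stays above 93 in every list, and 4933401D09Rik falls to 2.91 in B6-TgYF.

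Some meiotic genes shared a promoter. Another gene's start site lay within 1 kb of 3 of the 32 placed genes, where 16.8% of all placed genes had such a neighbour. A count of 3 is too small to set the genes apart. These were Smc1b with Ribc2, Stag3 with Gpc2 and Trip13 with Brd9, and the neighbour's start site lay under the same B6 peak each time.

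Inside the genes, away from start sites, the share of genes with a B6 peak was near that of all genes, while peaks per Mb were fewer. A B6 peak beyond 1 kb of every start site lay in 9 of the 32 genes, where 28.5% of all placed genes had such a peak. Per Mb of gene this came to 7.39 peaks in B6 and 5.54 and 4.31 in B6-TgWT and B6-TgYF, against 14.8, 14.7 and 11.5 over all placed genes. Long genes weigh heavily in the rate per Mb: of 1.62 Mb in all, Mei4 took 342338 bp and Rec114 169851 bp. Mei1 is among the 9 genes, with 2 B6 peaks, and its start site in the table lies inside its gene model. PRDM9 with other zinc fingers can mark other sites, so B6-TgWT peaks with no overlapping B6 peak were counted too. They lay in 2 of 32 genes, Hormad2 and Mlh3, where 12% of all placed genes had one. Hormad2 held a pair, at chr11:4267879-4270310 (fold 10.81) and chr11:4307065-4309755 (fold 8.13), and Mlh3 held 1 at chr12:86587158-86588883 (fold 6.52). B6-TgYF had no peak in the body of Hormad2 or Mlh3. Absence from a list is no proof that the mark was absent.

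The promoter sequences were described for the 33 genes in the RefSeq table. The median GC content of the 250 upstream bases was 58.0%, against 52.4% over all 26794 genes and 58.8% over the 14125 genes with a B6 promoter peak. CpG observed over expected, a ratio that is low where methylated CpGs were lost in evolution, had a median of 0.671 (interval 0.560 to 0.822), against 0.382 over all genes and 0.676 over those with a B6 peak. So the meiotic promoters were as CpG-rich as marked promoters in general. They ranged from 0.244 at Rad21l to 1.21 at Smc1b. Prdm9 had 0.563, Stra8 0.267 and Syce3 0.288. The window of Rad21l, with 25.6% GC, is not under its peak.

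The relation of mark and CpG content is given as a description. Spearman's rho between CpG observed over expected and the B6 percentile was 0.128 across the 31 meiotic genes with a B6 peak and 0.517 across all 14125. The B6 percentiles of the 31 spanned only 62.8 to 99.1. Rad21l, whose window is not under its peak, is among them. Genes share the same libraries and are not replicates, so no test was made. Mnd1 and Stra8 had similarly low ratios, 0.367 and 0.267, with B6 percentiles of 90.6 and 73.2. The 73.2 belongs to the Stra8 peak 706 bp from its start site, and the peak over the start site had 67.2. The CpG-rich promoters of Smc1b and Stag3 (1.05) stood at 85.0 and 75.6.

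Motif matches were counted on both strands and are given as a description, with no test. The E-box CACGTG was found in 6 of 33 (18.2%), in Sycp1, Sycp3, Tex12, Hormad1, Stag3 and Rec114, against 6.09% of all promoters of this length and 8.22% of those with a B6 peak. The E2F motif was in 5 of 33 (15.2%), in Tex12, Hormad1, Prdm9, Msh5 and Rnf212, against 1.93% and 3.03%. The NRF1 motif was in 3 of 33 (9.09%), in Syce1, Hormad1 and Hfm1, against 0.784% and 1.39%. The STRA8 motif was in 4 of 33 (12.1%), in Hormad2, Prdm9, Msh5 and Hfm1, against 6.43% and 7.09%. The MYB core was in 2 of 33 (6.06%), in Syce3 and Zcwpw1, against 11.0% and 8.93%, and the cyclic AMP element was in 0 of 33 against 1.61% and 2.44%. As the printed sequences show, Hormad1 carried a pair of E-boxes with an NRF1 match between them and an E2F match farther upstream, and Sycp3 carried a pair of E-boxes. The windows of Stra8 and Terb1 held none of the 6 motifs. A match is a run of letters and not a binding site, and no factor was measured here.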

How the data were processed

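H3K4me3 peak lists of 3 mouse lines were used, 1 list per line, each named in the labels of 2 ChIP libraries and 1 input. CASAVA, Bowtie2, BWA, MACS2 and the build mm9 are named, without roles, per the submitters' processing notes; how replicates were combined is not given in the sources used here. Lists without a header were read in the column order of MACS. The deposited fold is the ratio of signal to background that the authors' caller gave each peak. The −log10 p and −log10 q are the authors' values too, and the deposited score is 10 times the −log10 p. Depth is unknown.

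No mm9 annotation was used. RefSeq start sites (GRCm38.p6) were moved by the offset, per chromosome block, that put the most start sites within 1 kb of a B6 peak, with start sites then centred on peaks. The 38 genes and sites within 2 kb of them did not vote. A block was clear with at least 20 voting sites and 1.3 times the hits of the best other offset, and an offset was kept where the B6 and the B6-TgYF list voted within 500 bp of each other. Of 138 blocks, 121 were clear. Votes differed by at most 66 bp at the meiotic genes, and the largest standard error was 94 bp. The share of voting sites near a peak was lowest in the block of Ccnb1ip1, at 28.9%, with 68 hits against 48 at the best other offset. A ratio of 1.5 with the other settings as used left out Ccnb1ip1 as well as Stag3 and Zcwpw1. These settings were reached in steps, with the placing of the meiotic genes in view: the tied offsets were first taken uncentred, the ratio was lowered from 1.5 after it dropped Zcwpw1 and Stag3, the agreement of votes was then added, which left out Sycp2, and the splitting of blocks was eased from 6 to 4 standard errors after the block of Tex12 was inspected, which also brought back Ccnb1ip1. The placing by a single list was checked on simulated peaks, with every start site voting. That check did not cover the agreement of votes or the leaving out of the 38 genes. Its share of start sites with a peak was larger than in the block of Ccnb1ip1.

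With several peaks near a start site the strongest by fold was used. Genes described in full were chosen by rule: the 5 highest and 5 lowest by mean percentile, the 3 widest and narrowest, Prdm9, genes without a peak, and genes outside the central 95%. Hormad1 and Sycp3 were shown for their motifs, and the 250 base window was set after the 300 base table was seen, to leave out transcribed sequence. The genes and lists were chosen with earlier results of these data known. The scripts ran on numpy 2.4.6, scipy 1.17.1, pandas 2.3.3 and matplotlib 3.10.9 under Python 3.11.15. The DMC1 libraries were not analysed here.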

Additional observations from a re-analysis of the deposited data

How the results depend on the processing

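Alternatives were other windows, a start site inside the peak, stronger, equally long or commonly thresholded lists, other measures of strength, other peaks of a gene, other votes and genes without neighbours. Of 191 recomputed values, 174 stayed within the interval, within 1.5 times the count or on the same side of the central 95%. The limit of 1.5 times is loose for the count of genes with a peak, since 33 genes were in the start table and even 23 passed it. Among the 17 values beyond were the background shares of every motif, when promoters of genes with a B6 peak were the background. With the strongest 50% of each list the median percentile was 69.1, 64.3 and 61.4 in the order B6, B6-TgWT, B6-TgYF, and ranked among promoter peaks of all placed genes it was 50.7, 45.5 and 47.2; both follow from the shorter ranking. With lists of equal length, added after the data were seen, the median difference in percentile between B6-TgYF and B6 was -0.712 instead of -3.86. At the peak nearest to the start site the log2 width ratio of Stra8 between B6-TgWT and B6 was -0.65. The placing settings first tried, added after the data were seen, changed which genes were placed. With a clear ratio of 1.5 all 3 lists had a peak at 28 of 29 placed genes. With blocks split from 6 standard errors this held at 30 of 31, without centring at 23 of 25 and with all first settings together at 29 of 31. Without centring, Sycp1, Sycp3, Hormad1, Prdm9, Mnd1, Msh5 and Sun1 were not placed. So the values of Prdm9 and Sun1 were not obtained under that setting. All first settings together, which used B6 votes alone, placed those genes but not Stag3 and Zcwpw1. With B6 votes alone, which place Sycp2, the count was 32, and without Prdm9 no median left its interval. No paired analysis was possible because both libraries of a line went into 1 list, and leaving out a replicate was not possible for the same reason. Weak marks below the callers' limit cannot be seen in these lists.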
